A study of Homo sapiens with 6 samples.

Results

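Notch is a cell-surface receptor that a ligand on a neighbouring cell activates. After ligand binding the receptor is cut, first outside the membrane and then within it, and its released tail enters the nucleus, joins the DNA-binding protein RBPJ and switches on target genes such as HES1. The outer part of the receptor is built of epidermal growth factor (EGF)-like repeats that carry O-linked sugars: POFUT1 adds fucose, POGLUT1 adds glucose and EOGT adds N-acetylglucosamine (GlcNAc), while the fringe enzymes LFNG and RFNG extend the fucose with GlcNAc. EOGT and the fringe enzymes take their GlcNAc from UDP-GlcNAc, the product of the enzyme UAP1.

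The 10 genes described here are the receptors NOTCH1, NOTCH2 and NOTCH3, the ligand JAG1, the glycosyltransferases POFUT1, POGLUT1, EOGT, LFNG and RFNG, and the target HES1. They were matched by gene name, and all 10 of 10 were found among the 58735 genes of the count table. The study asked how gene expression differs when UAP1 is knocked down in ES2 cells, a human ovarian cancer line. There were 3 libraries of ES2 cells transfected with UAP1 siRNA (siUAP1, genotype given as UAP1 knockdown) and 3 of ES2 cells transfected with a control siRNA (control, genotype given as WT). RNA was taken 48 hours after transfection, and the medium was changed after 6 hours. The labels name 2 UAP1 siRNAs and 1 control siRNA without saying which library received which. All libraries come from the same cell line, and whether replicates were separate cultures is not stated, so the spread behind each p-value is that among these libraries and may be technical.

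The siUAP1 libraries held 23727266 to 25972582 counts and the control libraries 21267240 to 25054159. UAP1 had 521, 608 and 642 counts in siUAP1 libraries 1 to 3, against 7341, 9081 and 10848 in control libraries 1 to 3. It averaged 6.75 ± 0.496 FPKM in siUAP1 and 110 ± 15.9 FPKM in control libraries (SD, n = 3 each; FPKM are reads scaled to gene length and library size). The labelled tumour type is high-grade serous carcinoma. Of 12 markers of that type, KRT7, KRT8 and KRT18 were abundant and the other 9 (PAX8, WT1, MUC16, EPCAM, CDH1, MSLN, FOLR1, SOX17 and ESR1) were below 1 FPKM in every library, with MUC16, FOLR1 and SOX17 at 0 counts throughout. The list summed to 278 to 350 FPKM in siUAP1 and 202 to 225 FPKM in control libraries. All 6 leukocyte markers were also below 1 FPKM in every library, with CD14 the highest and CD3E and ITGAM at 0, as were all 5 erythroid markers, with ALAS2 the highest and HBA1 and HBA2 at 0. The leukocyte list summed to 0.103 to 0.446 FPKM in siUAP1 and 0.124 to 0.25 FPKM in control libraries, and the erythroid list to 0.0182 to 0.155 FPKM in siUAP1 and 0.0191 to 0.0657 FPKM in control libraries. The endothelial markers TIE1 and CDH5 and the fibroblast markers COL1A1, PDGFRA and PDGFRB were expressed, while the other 4 endothelial markers and the other 3 fibroblast markers stayed below 1 FPKM, with DCN at 0. The summed endothelial markers were 74.5 to 87.4 FPKM in siUAP1 and 72.7 to 85 FPKM in control libraries, and the summed fibroblast markers were 141 to 245 FPKM in siUAP1 and 82.3 to 153 FPKM in control libraries, mostly from COL1A1. In the edgeR fit with the replicate block, described below, KRT7, KRT8 and KRT18 were higher in siUAP1 (log2 fold change 0.58, 0.78 and 0.50). So were COL1A1 (0.85) and PDGFRB (0.95), all with an adjusted p under 0.05. Without the block none of them reached this. These values lie above the highest among the tested genes of the 10, 0.40 for NOTCH2. The other tested markers had an adjusted p above 0.05 in both fits. The part of these marker differences in the Notch results was not tested.

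HES1 is a classical direct target of Notch, through RBPJ sites just upstream of its start. The 250 bases upstream of the RefSeq start are shown for HES1, as the readout of the pathway, and for NOTCH2, JAG1 and POGLUT1, the genes whose RNA differed between the groups within replicate numbers. Capitals mark the RBPJ core TGGGAA, searched on both strands, so that it also appears as TTCCCA. The windows are RefSeq sequences on GRCh38.p14, written 5′ to 3′ on the gene's strand: HES1 chr3:194135898-194136147 (plus), POGLUT1 chr3:119468713-119468962 (plus), NOTCH2 chr1:120069663-120069912 (minus) and JAG1 chr20:10674000-10674249 (minus).
HES1: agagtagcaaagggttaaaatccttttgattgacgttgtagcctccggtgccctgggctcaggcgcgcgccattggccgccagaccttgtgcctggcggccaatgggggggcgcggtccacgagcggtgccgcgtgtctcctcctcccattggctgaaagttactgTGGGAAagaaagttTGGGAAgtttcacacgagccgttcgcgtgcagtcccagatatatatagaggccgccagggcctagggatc
POGLUT1: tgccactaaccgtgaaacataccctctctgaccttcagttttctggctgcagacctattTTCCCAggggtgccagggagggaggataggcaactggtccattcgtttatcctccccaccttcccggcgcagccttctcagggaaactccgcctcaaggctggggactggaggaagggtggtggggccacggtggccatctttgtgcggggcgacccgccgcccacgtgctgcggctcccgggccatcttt
NOTCH2: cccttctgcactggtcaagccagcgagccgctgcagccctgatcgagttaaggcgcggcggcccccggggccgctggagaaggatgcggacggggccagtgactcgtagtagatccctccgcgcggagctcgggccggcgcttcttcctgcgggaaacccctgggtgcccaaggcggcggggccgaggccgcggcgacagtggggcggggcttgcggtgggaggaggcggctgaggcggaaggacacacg
JAG1: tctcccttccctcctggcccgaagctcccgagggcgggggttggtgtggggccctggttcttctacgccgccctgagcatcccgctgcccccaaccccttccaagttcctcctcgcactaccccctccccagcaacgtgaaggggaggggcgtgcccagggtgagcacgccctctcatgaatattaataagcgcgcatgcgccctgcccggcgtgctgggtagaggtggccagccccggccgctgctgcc

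The HES1 window holds 2 copies of the core, starting 84 and 70 bases before the start and both on the gene's strand. The POGLUT1 window holds 1 copy, on the opposite strand, 191 bases before the start, and those of NOTCH2 and JAG1 hold none. Of all 35116 upstream windows of this length, 20.8% held at least 1 core and 2.9% held at least 2. Windows were found for 9 of the 10 genes, 10 windows in all since LFNG has 2, and 3 of the 10 held a core. A match describes the letters only.

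Within replicate numbers, NOTCH2 and POGLUT1 rose with UAP1 knockdown and JAG1 fell, whereas NOTCH1, POFUT1, EOGT, LFNG, RFNG and HES1 were not called. NOTCH3 was near 0 and was not tested. NOTCH2 was 1.32-fold higher, POGLUT1 was 1.28-fold higher and JAG1 was at 0.829 of its control level. These calls come from edgeR's quasi-likelihood test with the replicate number as a block (called: adjusted p under 0.05 over 15768 tested genes), in which siUAP1 is compared with control inside each of 3 pairs of libraries. The fit without the block was planned as the main test, and the block as an alternative. That main fit called 0 of the 9 tested genes, as did every other test without pairs. In it 1 of the 9 (NOTCH2) had an unadjusted p under 0.05, beside 1125 of all 15768 tested genes. Libraries with the same number deviated together, which is why the paired values are given. "Rose" and "fell" refer to the paired fit throughout.

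The blocked fit called 3 of the 9 tested genes, 2 higher and 1 lower, beside a background of 16.2% of all tested genes (9.07% higher and 7.14% lower). The fit without the block called 0.108% of all tested genes. The median log2 fold change of the 9 genes was 0.09 in the blocked fit, beside -0.00 over all genes. In 1 of the 9 genes, NOTCH2, the CPM (counts scaled to library size) of the groups did not overlap, as was so in 12.4% of all tested genes. The genes were chosen with earlier results of these data known, so these counts describe them and carry no test of the list. In bulk RNA, fewer cells expressing a gene and less RNA per cell cannot be told apart.

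**Figure D1:**
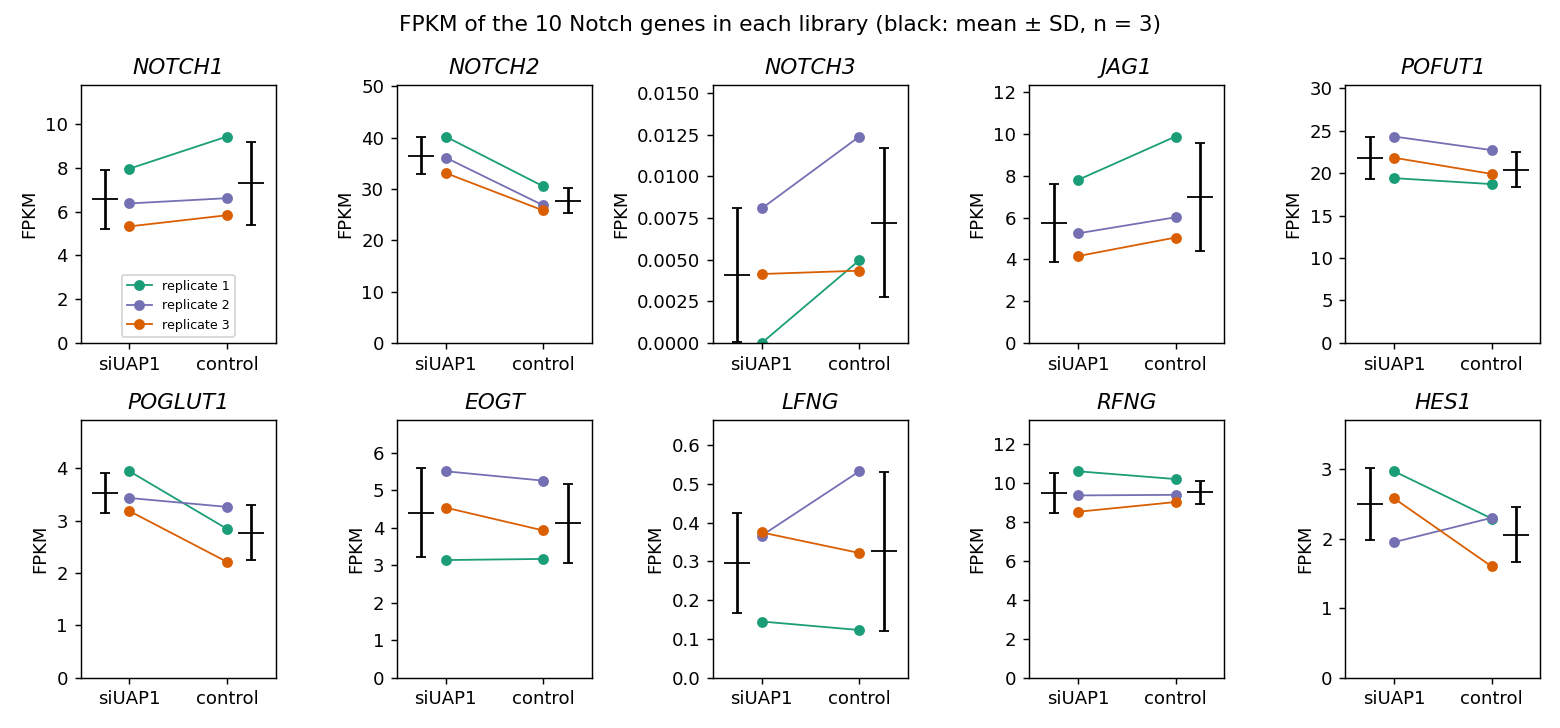
Deposited FPKM (vertical axes, each from 0) of the 10 genes in each library, with siUAP1 left of control, lines joining libraries of the same replicate number, and black bars for mean ± SD (n = 3). NOTCH2 is higher in siUAP1 in every pair without overlap of the groups, NOTCH1 and JAG1 are lower in siUAP1 in every pair but overlap, and the NOTCH3 axis ends far below 1 FPKM.

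Of the receptors, NOTCH2 (ENSG00000134250, GRCh38 chromosome 1, 119911553 to 120069626, minus strand) was the most abundant of the 10 genes. It had 40.2, 36.1 and 33.1 FPKM in siUAP1 libraries 1 to 3, against 30.5, 26.8 and 25.8 FPKM in control libraries 1 to 3. The lowest siUAP1 library lay above the highest control library. With the block the log2 fold change came to 0.40 (SE 0.0457), with an edgeR adjusted p of 5.72e-07, and without the block to 0.40 (SE 0.111), with an adjusted p of 0.329. The log2 differences inside pairs 1 to 3 were 0.41, 0.42 and 0.37, and the call held with any pair left out (adjusted p = 0.00181 without pair 3, the highest). NOTCH2 has partial copies on the same chromosome, among them NOTCH2NLA, which encodes a short NOTCH2-derived protein and had 70 to 122 counts per library against 10638 to 16348 for NOTCH2. With the counts of NOTCH2NLA and of NBPF26, another duplicated gene of chromosome 1, added to those of NOTCH2, the log2 fold change was 0.38 (adjusted p = 1.11e-06 with the block).

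NOTCH1 (ENSG00000148400, chromosome 9, 136494433 to 136545786, minus strand), the receptor closest to NOTCH2 in domain layout, had 7.97, 6.38 and 5.33 FPKM in siUAP1 libraries 1 to 3, against 9.44, 6.62 and 5.84 FPKM in control libraries 1 to 3. In both groups library 1 was the highest, and the groups overlapped. Its log2 fold change with the block was -0.14 (SE 0.0545, edgeR adjusted p = 0.0805), with -0.24, -0.06 and -0.13 inside pairs 1 to 3, and it was not called. Without the block it was -0.15 (SE 0.199, adjusted p = 0.975), and 0.07 when control library 1 was left out. NOTCH3 (ENSG00000074181, chromosome 19, 15159038 to 15200981, minus strand) had 0, 2 and 1 counts in siUAP1 libraries 1 to 3 and 1, 3 and 1 in control libraries 1 to 3, at or under a floor of 3 counts in every library, so no fold is given. The fourth family member, NOTCH4, was low as well, with 27 to 32 counts in siUAP1 and 6 to 20 in control libraries. It had 0.108 to 0.132 FPKM in siUAP1 and 0.0288 to 0.0836 FPKM in control libraries, which did not overlap, and its log2 fold change of 0.94 (SE 0.403) was not called (edgeR adjusted p = 0.124 with the block).

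The makeup of the receptor RNA, measured as a share of the summed FPKM of NOTCH1, NOTCH2 and NOTCH3, does not depend on library scaling. NOTCH2 made up 83.5%, 85% and 86.1% of it in siUAP1 libraries 1 to 3, against 76.4%, 80.2% and 81.5% in control libraries 1 to 3. Every siUAP1 library lay above every control library. The means were 84.8% ± 1.33 in siUAP1 and 79.3% ± 2.67 in control libraries (SD, n = 3 each), a difference of 5.5 percentage points (two-sided exact permutation test, p = 0.1, the smallest that 3 against 3 allows). The differences inside pairs 1 to 3 were 7.1, 4.79 and 4.61 points. NOTCH1 took nearly all the rest, with 15.1% ± 1.34 in siUAP1 and 20.6% ± 2.68 in control libraries.

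**Figure D2:**
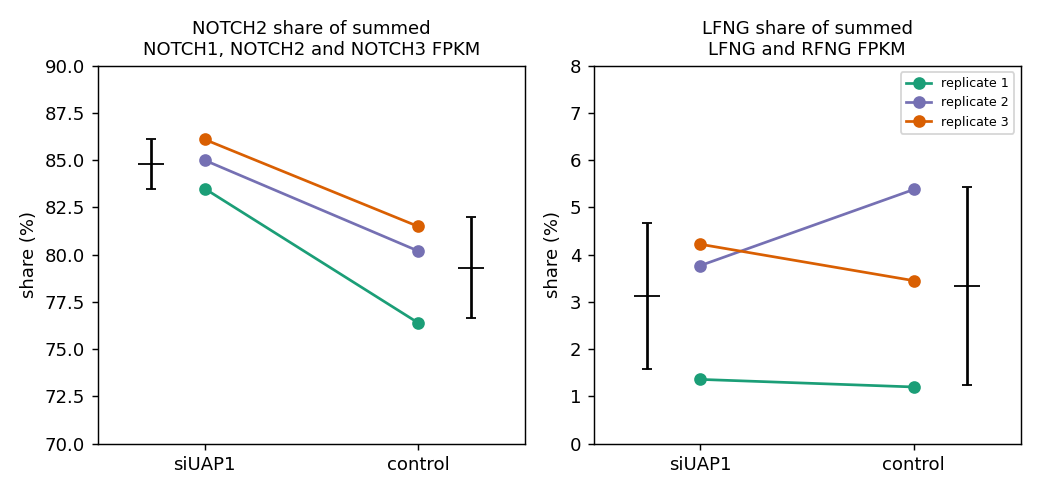
Share of NOTCH2 in the summed receptor FPKM (left, axis from 70% to 90%) (NOTCH1, NOTCH2 and NOTCH3) and of LFNG in the summed FPKM of LFNG and RFNG (right, axis from 0), in %, with siUAP1 left of control, points joined by replicate number and black bars for mean ± SD (n = 3). The NOTCH2 share is 83.5% to 86.1% in siUAP1 and 76.4% to 81.5% in control libraries, and the LFNG shares overlap. RFNG, whose counts are uncertain, makes up most of the sum on the right.

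JAG1 (ENSG00000101384, chromosome 20, 10637684 to 10673999, minus strand), a membrane-bound Notch ligand, had 7.81, 5.25 and 4.16 FPKM in siUAP1 libraries 1 to 3, against 9.89, 6.02 and 5.05 FPKM in control libraries 1 to 3. The groups overlapped widely, since library 1 was the highest in both, while each siUAP1 library lay below the control library of its number. Inside pairs 1 to 3 the log2 differences were -0.33, -0.20 and -0.27. The blocked fit gave a log2 fold change of -0.27 (SE 0.0565) with an edgeR adjusted p of 0.00123, and the fit without the block -0.28 (SE 0.281) with an adjusted p of 0.959. This fall rests on the pairing of libraries: without control library 1 the unpaired value was 0.05. Of the other ligands, DLL3, which in mammals acts mainly inside the cell as an inhibitor, had the highest level with 1.88 ± 0.179 FPKM in siUAP1 and 1.82 ± 0.423 FPKM in control libraries (SD, n = 3 each), and its log2 fold change was 0.07 (SE 0.165, adjusted p = 0.847 with the block). JAG2, DLL1 and DLL4 did not pass the filter on low counts.

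Among the enzymes that put the first sugar on EGF repeats, POGLUT1 rose, while POFUT1 and EOGT were not called. POGLUT1 (ENSG00000163389, chromosome 3, 119468938 to 119494708, plus strand), the O-glucosyltransferase, had 3.94, 3.43 and 3.18 FPKM in siUAP1 libraries 1 to 3, against 2.84, 3.26 and 2.21 FPKM in control libraries 1 to 3. Library 3 of siUAP1 lay just below library 2 of control, so that the groups overlapped. The difference was uneven, with 0.48, 0.07 and 0.53 (log2) inside pairs 1 to 3. The blocked fit put the log2 fold change at 0.35 (SE 0.0911, adjusted p from edgeR 0.00813), and the unblocked fit at 0.35 (SE 0.164, adjusted p = 0.75). The call ended without pair 3 (0.27, adjusted p = 0.182) and in DESeq2 with the block (0.35, adjusted p = 0.0706).

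POFUT1 (ENSG00000101346, chromosome 20, 32207880 to 32238667, plus strand), the O-fucosyltransferase on whose product fringe acts, had 19.4, 24.3 and 21.8 FPKM in siUAP1 libraries 1 to 3, against 18.7, 22.7 and 19.9 FPKM in control libraries 1 to 3. Each siUAP1 library was a little above the control library of its number, and the groups overlapped. With the block the log2 fold change stood at 0.10 (SE 0.0475), with an edgeR adjusted p of 0.182. EOGT (ENSG00000163378, chromosome 3, 68975214 to 69013961, minus strand), which transfers GlcNAc from UDP-GlcNAc to EGF repeats in the endoplasmic reticulum, had 3.14, 5.51 and 4.54 FPKM in siUAP1 libraries 1 to 3, against 3.17, 5.26 and 3.93 FPKM in control libraries 1 to 3. Library 2 was the highest in both groups, and the spread among replicate numbers exceeded any difference between groups. With the block its log2 fold change stood at 0.09 (SE 0.0804), with an edgeR adjusted p of 0.496. The unpaired value of 0.10 turned to -0.06 without control library 1 and to -0.10 without siUAP1 library 2. An antisense gene, AC109587.1, overlaps the start of EOGT, at 1.04 CPM in control libraries, against 23.5 CPM for EOGT, and the use of strand in counting is not stated.

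Of the fringe enzymes, which decide how receptors respond to different ligands, RFNG had the highest level. RFNG (ENSG00000169733, chromosome 17, 82047902 to 82051831, minus strand) had 10.6, 9.36 and 8.52 FPKM in siUAP1 libraries 1 to 3, against 10.2, 9.39 and 9.02 FPKM in control libraries 1 to 3. The groups overlapped throughout, and with the block the log2 fold change stood at -0.01 (SE 0.0666), with an edgeR adjusted p of 0.96. It overlaps GPS1, a gene of the COP9 signalosome on the opposite strand with 124 CPM in control libraries against 37.1 CPM for RFNG, so that its counts are uncertain. LFNG (ENSG00000106003, chromosome 7, 2512529 to 2529177, plus strand) had only 12, 33 and 33 counts in siUAP1 libraries 1 to 3, against 9, 47 and 27 in control libraries 1 to 3. Libraries 1 were the lowest in both groups. The log2 fold change of -0.09 had an SE of 0.364 with the block (edgeR adjusted p = 0.91), and a difference of this size was not detectable at this depth. LFNG made up 3.12% ± 1.54 of the summed fringe FPKM of LFNG and RFNG in siUAP1 and 3.34% ± 2.09 in control libraries (SD, n = 3 each; two-sided exact permutation test, p = 1). RFNG made up most of that sum, so the share carries the uncertainty in the RFNG counts. The third fringe gene, MFNG, which is not in that sum, was at 0.62 ± 0.272 FPKM in siUAP1 and 0.602 ± 0.308 FPKM in control libraries.

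HES1 (ENSG00000114315, chromosome 3, 194136145 to 194138732, plus strand), a transcriptional repressor, had 148, 106 and 137 counts in siUAP1 libraries 1 to 3, against 101, 122 and 81 in control libraries 1 to 3. This was 2.97, 1.95 and 2.58 FPKM in siUAP1 libraries 1 to 3, against 2.29, 2.3 and 1.6 FPKM in control libraries 1 to 3. It was higher in siUAP1 in pairs 1 and 3 (log2 0.38 and 0.68) and lower in pair 2 (-0.24). In the blocked fit HES1 had a log2 fold change of 0.27 (SE 0.183) with an edgeR adjusted p of 0.356 and was not called. It was 0.53 (adjusted p = 0.0721) without pair 2 and 0.07 (adjusted p = 0.896) without pair 3.

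**Figure D3:**
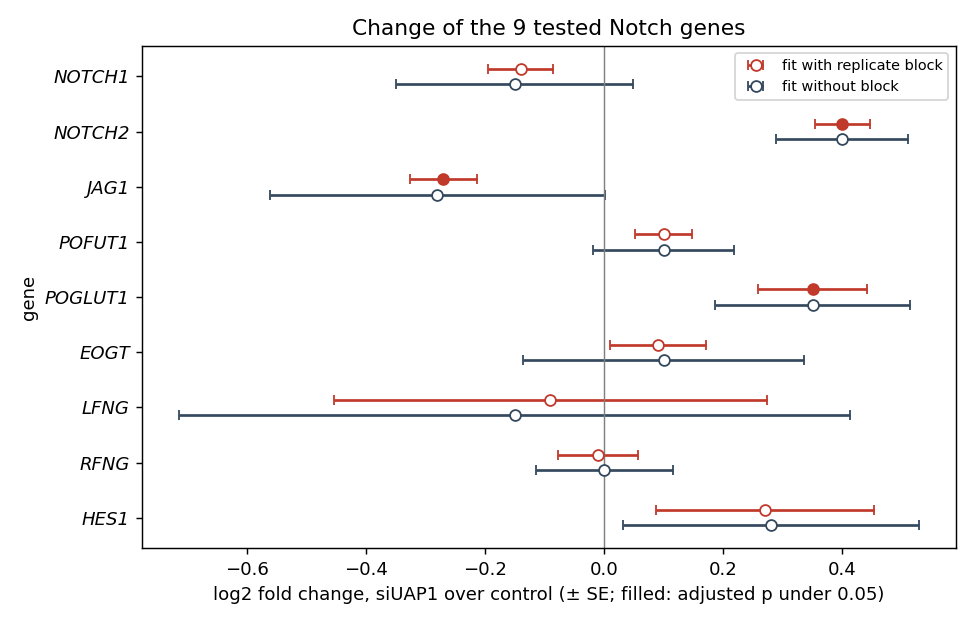
Log2 fold change, siUAP1 over control (horizontal axis), ± SE, of the 9 tested genes in the fit with the replicate block (red, n = 3 pairs) and without it (blue, n = 3 libraries a group), with filled points for adjusted p under 0.05. The values of the 2 fits nearly coincide, the error bars are shorter with the block, and NOTCH2, POGLUT1 and JAG1 are filled.

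Averaged over the 6 libraries, the order of levels per gene length was NOTCH2 (32.1 FPKM), POFUT1 (21.1), RFNG (9.5), NOTCH1 (6.93), JAG1 (6.36), EOGT (4.26), POGLUT1 (3.14), HES1 (2.28), LFNG (0.311) and NOTCH3 (0.00565). NOTCH2 led POFUT1, POFUT1 led RFNG and RFNG led NOTCH1 in 6 of 6 libraries. The place of RFNG carries the uncertainty in its counts from the overlap with GPS1. The order held in 5 of 6 libraries between NOTCH1 and JAG1, in 4 of 6 between JAG1 and EOGT and in 5 of 6 between EOGT and POGLUT1. The order of these neighbours thus varied between libraries, and their differences were not tested. POGLUT1 led HES1, HES1 led LFNG and LFNG led NOTCH3 in 6 of 6 libraries.

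The rest of the pathway was taken from a list of 72 further genes in the table, of which 60 passed the filter on low counts. With the block 13 of these rose, 1 fell and 46 were not called, 23.3% of the 60 beside 16.2% of all tested genes. Their median log2 fold change was 0.07. Without the block 0 was called and 10 of the 60 had an unadjusted p under 0.05, beside 1125 of all 15768. The CPM of the groups did not overlap in 11 genes that were higher and 2 that were lower in siUAP1, beside 1063 higher and 900 lower (12.4% in all) of all 15768. The counts by role that follow are of few genes each, and stand beside 9.07% higher and 7.14% lower (16.2% in all) among all tested genes in the same fit.

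Genes of receptor cleavage held 5 that rose among 9 tested (55.6%, beside 9.07% higher among all tested genes). FURIN, the protease that cuts the receptor on its way to the surface, was at 27.2, 25.9 and 25.3 FPKM in siUAP1 libraries 1 to 3, against 20.6, 18.6 and 20 FPKM in control libraries 1 to 3. The groups were well apart (log2 fold change 0.41, SE 0.0497, edgeR adjusted p = 1.4e-06 with the block, 0.206 without). ADAM10, which makes the cut that follows ligand binding, was at 9.76, 10.5 and 9.55 FPKM in siUAP1 libraries 1 to 3, against 8.29, 8.34 and 7.85 FPKM in control libraries 1 to 3 (0.29, SE 0.0473, adjusted p = 8.8e-05 with the block). Its relative ADAM17 rose by 0.31 (log2, SE 0.0629). Of gamma-secretase, the complex that makes the last cut, the subunit genes NCSTN (0.21, SE 0.0477) and APH1B (0.28, SE 0.0702) rose. The call of NCSTN ended without pair 3, and that of APH1B in DESeq2 with the block. APH1A, the most abundant of the cleavage genes at 39.4 ± 4.34 FPKM in siUAP1 and 40.6 ± 3.97 FPKM in control libraries (SD, n = 3 each), was not called (-0.04), nor was PSENEN (-0.22, SE 0.128).

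Of 11 other tested genes of Notch O-glycosylation, 4 rose (36.4%, beside 9.07% among all tested genes) and 0 fell (beside 7.14%). GXYLT1 and GXYLT2, which add xylose to the glucose that POGLUT1 transfers, were higher in every siUAP1 library than in any control library. GXYLT1 had 8.88, 11.2 and 10.4 FPKM in siUAP1 libraries 1 to 3, against 6.81, 7.72 and 6.86 FPKM in control libraries 1 to 3 (log2 fold change 0.51, SE 0.0569, edgeR adjusted p = 3.4e-07 with the block, 0.207 without). GXYLT2 had 8.19, 7.45 and 7.47 FPKM in siUAP1 libraries 1 to 3, against 5.7, 5.34 and 5.08 FPKM in control libraries 1 to 3 (0.52, SE 0.0788, adjusted p = 2.88e-05 with the block, 0.191 without). XXYLT1, whose enzyme adds a further xylose, was not called. B4GALT1, a galactosyltransferase that extends the fringe-made chain, was at 24.4 ± 1.04 FPKM in siUAP1 and 18.3 ± 0.442 FPKM in control libraries (SD, n = 3 each) and rose by 0.42 (log2, SE 0.0511). SLC35C1, the GDP-fucose transporter of the Golgi, rose by 0.24 (log2, SE 0.0765, adjusted p = 0.0355), a call that ended when any 1 pair was left out and in DESeq2 with the block. KDELC1 and KDELC2, further O-glucosyltransferase genes, were not called (0.12 and -0.06).

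In the other roles the share called was near or below the 16.2% of all tested genes: 12.5% in the nuclear complex, 16.7% in trafficking and turnover and 12.5% among the other targets. In the nuclear complex 2 of 16 rose and 0 fell. HDAC1, a histone deacetylase of many corepressor complexes, was at 35.3 ± 4.58 FPKM in siUAP1 and 26.3 ± 1.4 FPKM in control libraries (SD, n = 3 each; log2 fold change 0.43, SE 0.0526), and the corepressor SPEN rose by 0.19 (log2, SE 0.0518, edgeR adjusted p = 0.0125 with the block). SPEN was not called without pair 2 or in DESeq2 with the block. RBPJ itself was at 7.98 ± 0.268 FPKM in siUAP1 and 8.37 ± 0.174 FPKM in control libraries (-0.07, SE 0.0531, adjusted p = 0.459), and SNW1, the most abundant gene of this group, was also not called (0.00). Of trafficking and turnover genes 1 of 12 rose, the ubiquitin ligase gene NEDD4 (0.28, SE 0.0503), and 1 fell, NUMBL (-0.34, SE 0.079), a relative of the Notch inhibitor NUMB. The ubiquitin ligase gene ITCH, the most abundant of them, was not called (0.06). Of 8 other tested targets, CCND1 rose (0.24, SE 0.0466), at 193 ± 15.4 FPKM in siUAP1 and 163 ± 8.06 FPKM in control libraries, and 0 fell. CCND1 was not called without pair 3. CCND1 and MYC (-0.04, not called) answer to many pathways. HEY1, a target more particular to Notch, was at 2.45 ± 1.1 FPKM in siUAP1 and 1.89 ± 0.573 FPKM in control libraries. It was not called (0.35, SE 0.14, adjusted p = 0.0987), though its adjusted p was the lowest of the uncalled targets. The remaining tested targets HES4 (0.25), HES6 (-0.02), HES7 (0.52), HEY2 (0.17) and NRARP (0.12) were not called either.

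**Figure D4:**
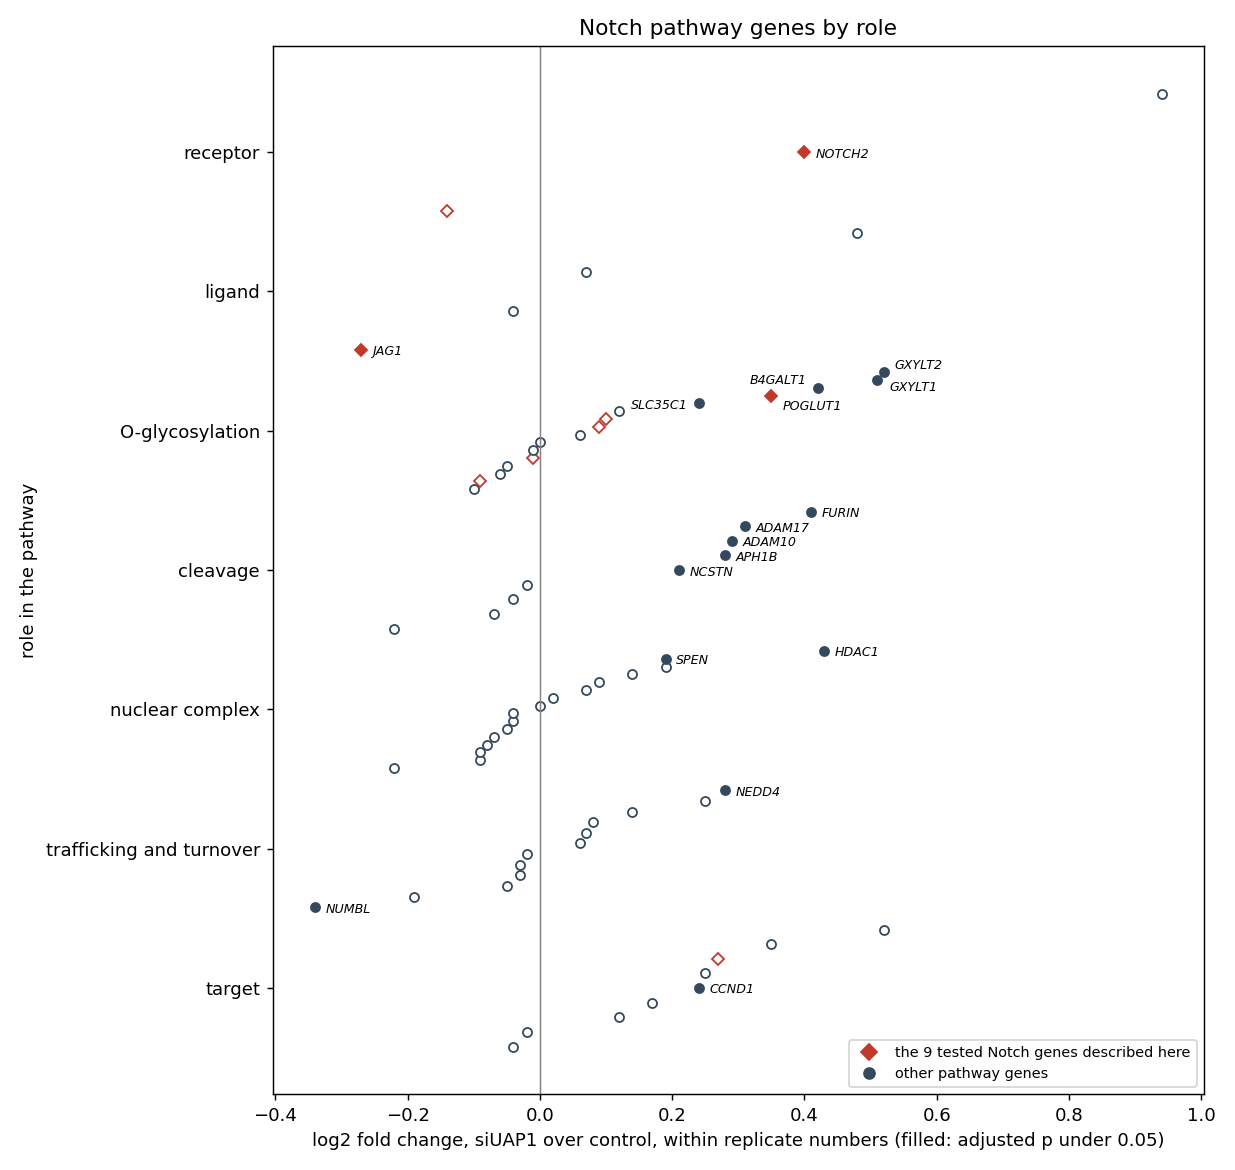
Log2 fold change, siUAP1 over control, within replicate numbers (horizontal axis) of the tested Notch pathway genes, grouped by role (vertical axis, genes sorted by value within a role), with red diamonds for the 9 genes described first, blue circles for the other 60 and filled, named points for adjusted p under 0.05. The called genes of cleavage and O-glycosylation all lie above 0, and JAG1 and NUMBL are the called genes below 0.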

How the data were processed

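The 6 RNA-seq libraries of ES2 cells were grouped by their titles. The deposited files are 1 table of raw counts and 1 of FPKM, both by gene. The submitters' processing notes name the build GRCh38.p12 and DESeq2. How reads were aligned and counted, and whether by strand, is not given in the sources used here. Gene positions are those of the deposited table, and promoter sequences are RefSeq's on GRCh38.p14.

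Counts were scaled by TMM and filtered with filterByExpr (minimum count 10, which kept 15768 genes). The groups were then compared by edgeR's quasi-likelihood test (edgeR 4.0.16, R 4.3.3), calling genes at a Benjamini-Hochberg adjusted p under 0.05 across all 15768. SEs were derived from the F statistic. Differences inside pairs are of log2 CPM with a prior count of 2. The pipeline was tested on simulated data built with pairs and with larger changes than those called among the Notch pathway genes. That run does not bear on those calls. Alternatives used RLE scaling, library totals, other filters, DESeq2 1.42.0, limma 3.58.1 on log2(FPKM + 1) or log2(FPKM + 0.1) (fold changes on that scale), a replicate block, and left-out libraries or pairs.

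The groups share replicate numbers in their titles. Deviations from the group means correlated at 0.552, 0.454 and 0.584 between libraries with the same number and at -0.434 to -0.0893 otherwise. Because deviations in a group cancel out, positive values for same numbers bring negative ones elsewhere, which are no separate support for the pairing. Every pair passed the minimum of 0.1, and the numbers were taken to pair the libraries. Replicate libraries were distinct: within groups, chi-square divided by its degrees of freedom was 23.9 to 41.3. Every one of the 10 genes is named. Of the other pathway genes, the rule names those called in either fit and the most abundant tested gene of each role, and others were named after their values were seen. The genes and lists were chosen with earlier results of these data known.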

Additional observations from a re-analysis of the deposited data

How the results depend on the processing

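Without pairs, the count of called genes was 17, and it was 273 with no filter beyond 1 count, 165 with DESeq2, 2 and 3 with limma on log2(FPKM + 1) and log2(FPKM + 0.1), 1 with limma on log2(FPKM + 1) and no filter, and 1 to 3 with any 1 library left out. None of the 10 genes was called in any of these. Of the other pathway genes 1 (GXYLT1) was called without the filter and 2 (GXYLT1 and B4GALT1) with DESeq2. With the replicate block 2556 of 15768 tested genes (16.2%) were called. Among them were 3 of the 9 tested genes described first and 14 of the 60 other pathway genes. These counts were 1311 (of 12111 tested), 2 and 11 with DESeq2 and the block, which gave no value for 1 of the 9. They were 2204 (of 15865), 3 and 15 without pair 1, and 1987 (of 15779), 3 and 12 without pair 2. Without pair 3 they were 1195 (of 16106), 2 and 11. Where fewer of the listed genes were called, fewer of all genes were called too. NOTCH2 and JAG1 were called in each of these blocked settings, and POGLUT1 was lost with DESeq2 and without pair 3. Alternatives added after seeing the data, all with the block, gave 2539, 3 and 14 with RLE scaling and 2587, 3 and 14 with library totals. With the counts of NOTCH2NLA and NBPF26 added to those of NOTCH2 they gave 2558, 3 and 14.

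With 1 library left out of the unpaired fit, the log2 fold change ran from -0.315 to 0.0739 for NOTCH1, from -0.567 to 0.0525 for JAG1, from -0.1 to 0.313 for EOGT, from -0.529 to 0.403 for LFNG and from -0.0888 to 0.0684 for RFNG. It kept its sign for NOTCH2 (0.323 to 0.472), and also, though moving by more than 1.5 times, for POFUT1 (0.0127 to 0.181), POGLUT1 (0.204 to 0.484) and HES1 (0.123 to 0.431). RFNG also turned to 0.00144 with a mean CPM of at least 5 and to 0.024 with the block without pair 3, and LFNG to 0.232 with the block without pair 2. None of these values was called, and the cause of the changes was not tested. The difference in the NOTCH2 share was 4 to 6.58 percentage points with any 1 library left out, and that in the LFNG share was -1.3 to 0.793, negative with all libraries. Low counts limit what can be said of NOTCH3, LFNG and HES1.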
